A study of Mus musculus with 6 samples.

Results

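The PI3K, AKT, mTOR and FOXO genes are 34 named genes of 1 signaling pathway, and they were read in the lungs of mice with mutant EGFR-driven lung cancer on a high-fat diet (LC-HFD) or a regular diet (LC-RD). The members were fixed by name, and each array probe set that the platform annotation assigns to exactly 1 of them was used. In all, 33 of the 34 had such a probe set, with 87 probe sets out of 45037 tested and 33 genes out of 18193. Rps6kb1 had none and was not analyzed. For each gene, the probe set with the highest mean over the 6 arrays was taken as its lead, and 30 of the 33 leads had a mean log2 value of at least 6.

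Each group held 3 mice, with 1 Affymetrix Mouse Genome array of whole lung per mouse. All 6 mice carried CC10-rtTA/tet-O-EGFR-L858R, in which doxycycline switches on a mutant human EGFR in airway epithelium under the CC10 promoter, on a C57BL/6 background. The study used males that were 6 weeks old at the start and gives 2 weeks of diet followed by 8 weeks of diet with doxycycline, whereas the sample labels place the start of doxycycline at 8 weeks and its length at 7 weeks. Both groups received doxycycline, at 625 ppm in food and 2 mg/ml in drinking water, and fat supplied 60% of the energy in the high-fat diet. Mice without the EGFR transgene or without doxycycline were not analyzed here, so the comparison is between diets within tumor-bearing lungs. The club cell marker Scgb1a1 read 13.47 to 13.64 on the 6 arrays, and the lung epithelial factor Nkx2-1 read 6.84 ± 0.0709 in LC-HFD lungs and 5.58 ± 0.147 in LC-RD lungs. Nkx2-1 was the 1 of 8 lung epithelium markers that passed, and Epcam (−0.21), Sftpa1 (−0.17) and Ager (−0.0877) lay on the other side of 0.

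The 2 sets of arrays also differed in control probe sets. Hybridization controls, which are added after labeling, averaged 11.49 to 11.53 on the LC-HFD arrays and 10.01 to 10.04 on the LC-RD arrays, and 18S rRNA probe sets averaged 7.57 to 7.69 and 12.51 to 12.54. Beta-actin probe sets averaged 12.81 to 12.84 and 12.76 to 12.83. Gapdh control probe sets averaged 11.59 to 11.64 on the LC-HFD arrays and 11.36 to 11.38 on the LC-RD arrays, a difference of 0.24. The gap between the 3′ and 5′ probe sets of 4 control genes, a sign of RNA quality, was 1.58 to 1.70 in LC-HFD lungs and 1.70 to 1.76 in LC-RD lungs. Diet and the handling of the arrays cannot be told apart in any difference given here. Values are on the log2 scale of the deposited table, a difference is LC-HFD minus LC-RD, and errors are the SD of 3 mice (n = 3 per group) unless named as a standard error. A probe set passed when limma gave an adjusted p under 0.05 over all 45037 probe sets.

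PI3K is a lipid kinase that receptors such as EGFR and the insulin receptor recruit to the membrane. The lipid it makes brings AKT to the kinase PDK1, and active AKT then phosphorylates GSK3, the TSC complex and the FOXO transcription factors. Phosphorylated FOXO proteins leave the nucleus, and loss of TSC activity frees RHEB to activate mTOR complex 1, which drives protein synthesis. Lipid phosphatases, PHLPP and PP2A oppose these steps, and AMPK restrains mTOR complex 1 when energy is low. Much of this regulation acts on proteins, so RNA levels describe the supply of components and not the activity of the pathway.

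FOXO factors bind a short DNA element, which was looked for at the starts of the member genes. The element GTAAACA, read on both strands as GTAAACA or TGTTTAC, was searched in RefSeq windows of GRCm38.p6 that run from 250 bases before to 50 bases after a gene start. Windows were at hand for 31 of the 34 members (43 windows, several starts for some genes), and the element was present in 2 of them, 4.65%, against 3.65% of all 32851 windows. Those 2 belong to Akt1 and Pik3cg. Among 23 genes that FOXO factors are known to induce, 19 had a window, and 4 of 22 windows held the element, in Bcl2l11, Sesn1, Trim63 and Txnip. The stretches below show the element of the AKT and PI3K members and of the FOXO target Txnip, in capitals, on the strand of the gene. They lie at chr12:112675009-112675075 (minus strand) for Akt1, chr12:32208526-32208592 (minus strand) for Pik3cg and chr3:96557806-96557872 (plus strand) for Txnip.
Akt1: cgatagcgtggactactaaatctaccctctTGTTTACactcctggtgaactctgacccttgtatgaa
Pik3cg: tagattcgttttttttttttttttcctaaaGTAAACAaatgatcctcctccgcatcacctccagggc
Txnip: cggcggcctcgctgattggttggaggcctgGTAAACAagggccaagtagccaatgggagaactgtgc
The element starts 161 bases before the gene start in Akt1, 92 in Pik3cg and 121 in Txnip. Of these genes the lead of Akt1 passed, and those of Pik3cg and Txnip did not. Among the other genes with the element, the lead of Sesn1 passed, as lower in LC-HFD lungs, and those of Bcl2l11 and Trim63 did not. A match is a description of the letters and does not show binding.

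A minority of the pathway's components differed between the diets. On the lead probe sets, 6 of 33 members rose in LC-HFD lungs, 3 fell and 24 did not pass. Over all genes the leads of 11.1% passed as higher and 16.2% as lower, against 18.2% and 9.09% of the members. All genes include leads at every signal level, while 30 of the member leads had a mean log2 of at least 6. The 6 with a lead that rose included Pik3cd and Pik3ca, which encode catalytic subunits of PI3K. The others were the kinases Akt1 and Gsk3a, the transcription factor Foxo4, and Tsc2, a brake on mTOR complex 1. The 3 with a lead that fell were Prkaa1, a catalytic subunit of AMPK, the PP2A subunit Ppp2r5e, and Pdpk1, which encodes PDK1. No other probe set of Pik3cd passed, and those of Pik3ca and Ppp2r5e passed in both directions. The median difference of the 33 leads was 0.0391, with a range from −0.55 to 1.05, and the median over all genes was 0.0188. Of the leads, Pik3cd alone passed with more than 2-fold, and the 24 that did not pass lay between −0.21 and 0.26. Without LC-RD replicate 1, 2 or 3 the number that fell was 1, 0 and 1. When the gap between 3′ and 5′ control probe sets was entered as a covariate, 2 rose (Pik3cd and Gsk3a) and 0 fell. With it, the differences of Pik3ca (0.405), Akt1 (0.36), Foxo4 (0.466), Tsc2 (0.296) and Ppp2r5e (−0.411) stayed close to those without it. Those of Pdpk1 (−0.276) and Prkaa1 (−0.368) were smaller. The gap was at most 1.696 in LC-HFD lungs and at least 1.703 in LC-RD lungs. It thus follows diet, and this model cannot separate the gap from diet.

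**Figure D1:**
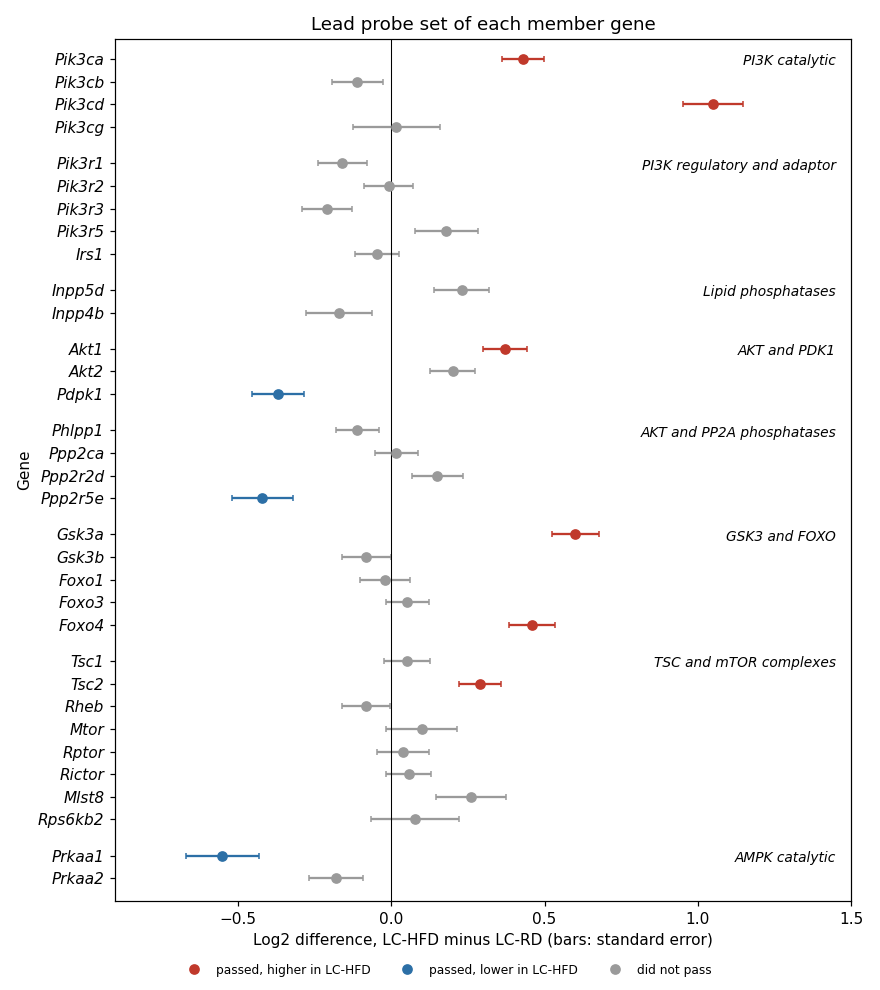
LC-HFD minus LC-RD difference in log2 value (horizontal axis) for the lead probe set of 33 member genes, grouped by role; points are differences of 3 against 3 mice and bars are standard errors. Red points passed as higher (6), blue points passed as lower (3) and gray points did not pass (24), and Pik3cd lies farthest right at 1.05.

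Of the 4 PI3K catalytic genes, 2 rose on their leads. Pik3cd encodes the delta catalytic subunit, which is abundant in leukocytes. Its lead (probe set 1443798_at) read 11.70, 11.56 and 11.57 in the LC-HFD lungs and 10.39, 10.64 and 10.66 in the LC-RD lungs. The groups did not overlap, and the difference was 1.05 (standard error 0.098, limma adjusted p = 0.000839), a 2.07-fold change. None of its other 5 probe sets passed, with differences from −0.028 to 0.17, and all 5 differed from the lead when the difference between probe sets was itself tested (limma adjusted p from 0.00284 to 0.0111). Of these 5, 3 were dim, with means under 4 in both groups. The other 2, 1453281_at and 1422992_s_at, averaged 6.06 and 4.03 in LC-HFD lungs and 5.94 and 4.05 in LC-RD lungs.

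Leukocyte levels bear on this subunit, and in whole lung more cells of a type cannot be told apart from more RNA per cell. Of 10 general leukocyte markers, 2 rose (Arhgdib and Lcp1), 1 fell (Vav1) and 7 did not pass. The mean of the list was 9.15 to 9.18 in LC-HFD lungs and 9.20 to 9.25 in LC-RD lungs, and the log2 of its summed signal 13.03 to 13.09 and 13.03 to 13.11. Ptprc, which encodes CD45 and is carried by nearly all leukocytes, averaged 9.92 in LC-HFD lungs against 10.08 and did not pass on its lead. Its other probe set gave −1.39. The study's list of changed genes holds a Ptprc probe set that was lower in LC-HFD lungs, at low signal in both groups. Of 7 macrophage markers 2 rose (Marco and Chil3) and 5 did not pass. Of those 5, Cd68 gave 0.11, and Adgre1 (−0.0036), Mrc1 (−0.0229), Csf1r (−0.0293) and Lyz2 (−0.14) lay below 0. The mean of the macrophage list was 10.17 to 10.2 in LC-HFD lungs and 10.04 to 10.05 in LC-RD lungs. Among T cell markers 0 of 6 passed. Of 5 B cell markers, Cd79a rose by 0.96 (limma adjusted p = 0.00156), Ms4a1 fell by 0.70 (0.00521) and 3 did not pass. Of 5 neutrophil markers, S100a8 and S100a9 fell by 0.85 and 0.92, while Csf3r (0.33), Cxcr2 (0.26) and Mmp8 (−0.11) did not pass. The part of cell composition in the Pik3cd value was not tested. Other members known from leukocytes did not pass on their leads. Pik3cg, the gamma subunit downstream of G-protein-coupled receptors, differed by 0.0172, its regulatory partner Pik3r5 by 0.18, and Inpp5d, the SHIP1 phosphatase of blood cells, by 0.23. The second probe set of Inpp5d passed with 0.36 (limma adjusted p = 0.0428).

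Pik3ca encodes the alpha catalytic subunit, which receptor tyrosine kinases use in most tissues, and its probe sets moved in both directions. The lead (1460326_at) read 9.33, 9.37 and 9.37 in the LC-HFD lungs against 8.96, 8.91 and 8.90 in the LC-RD lungs, a difference of 0.43 (standard error 0.0681, limma adjusted p = 0.00516). Every LC-HFD lung was above every LC-RD lung. A pair of probe sets fell instead. On 1429434_at the LC-HFD lungs read 7.65, 7.21 and 7.51 against 7.94, 8.07 and 7.97 in LC-RD, a difference of −0.54 (adjusted p = 0.0175), and 1429435_x_at gave −0.42. These differed from the lead by −0.97 and −0.85 (limma adjusted p = 0.00427 and 0.00491). The dimmest probe set, 1440054_at, rose from 3.15 ± 0.228 to 4.50 ± 0.0844, a difference of 1.35, and the other 2 did not pass. No single direction describes Pik3ca on this array. Pik3cb, which encodes the beta subunit, has 1 probe set and differed by −0.11 (adjusted p = 0.356).

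The regulatory subunits and the adaptor did not pass on their leads. Pik3r1, which encodes the main regulatory subunit of class I PI3K, read 8.28, 8.11 and 8.09 in LC-HFD lungs and 8.35, 8.31 and 8.31 in LC-RD lungs, a difference of −0.16 (limma adjusted p = 0.17). Among its other 3 probe sets, 1 passed with −0.72 (adjusted p = 0.0264). Pik3r2 differed by −0.00835, Pik3r3 by −0.21 and Irs1, the adaptor that links the insulin and IGF1 receptors to PI3K, by −0.0463. Inpp4b, a lipid phosphatase that works after SHIP1, differed by −0.17 and did not pass on either probe set.

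Akt1 rose, with all 4 probe sets on the same side of 0. It encodes a widely expressed AKT kinase. The lead read 9.81, 9.91 and 9.93 in LC-HFD lungs and 9.49, 9.54 and 9.52 in LC-RD lungs, a difference of 0.37 (standard error 0.0721, limma adjusted p = 0.0115). The groups did not overlap. The second probe set passed as well with 0.41, the other 2 gave 0.31 and 0.26 without passing, and none of the 3 moved unlike the lead. Without LC-RD replicate 1 the adjusted p of the lead was 0.0583. Akt2, the kinase that insulin uses in muscle and fat, gave 0.20 on its lead (adjusted p = 0.0831) and passed on 1 of its other 2 probe sets with 0.33.

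Pdpk1 encodes PDK1, the kinase that activates AKT at the membrane. Its lead read 8.35, 8.12 and 8.26 in LC-HFD lungs and 8.62, 8.56 and 8.66 in LC-RD lungs, a difference of −0.37 (standard error 0.0847, limma adjusted p = 0.0198). The second probe set gave 0.16 without passing, and the probe sets differed from each other by 0.53 (limma adjusted p = 0.0157). Leaving out any 1 LC-RD lung ended the call on the lead, with adjusted p from 0.0561 to 0.0754.

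**Figure D2:**
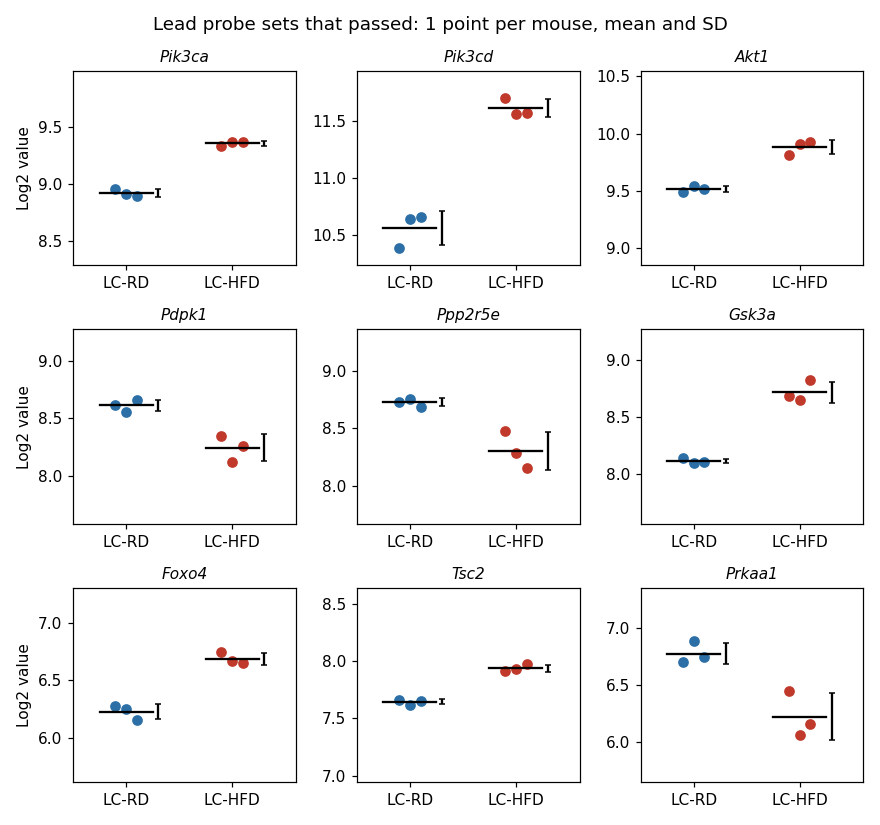
Log2 value (vertical axis) of the 9 lead probe sets that passed, with 1 point per mouse, in blue for LC-RD and red for LC-HFD; horizontal lines are means and bars are SDs of 3 mice. In each panel the 3 LC-HFD points lie apart from the 3 LC-RD points, with Pik3cd showing the widest gap and Pdpk1, Ppp2r5e and Prkaa1 lower in LC-HFD.

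Among the phosphatases that switch AKT off, probe sets of 1 gene passed in opposite directions. PP2A is built from a catalytic, a scaffold and a targeting subunit, and Ppp2r5e encodes a targeting subunit. Its lead (1428463_a_at) read 8.48, 8.28 and 8.15 in LC-HFD lungs and 8.73, 8.76 and 8.69 in LC-RD lungs, a difference of −0.42 (standard error 0.0991, limma adjusted p = 0.0211). Its other probe sets 1428461_at and 1439401_x_at fell by 0.28 and 0.35, and 1452788_at gave −0.17 without passing. The remaining probe set, 1428462_at, rose from 4.42, 4.28 and 4.04 in LC-RD to 5.63, 5.52 and 5.57 in LC-HFD lungs. That is a 2.51-fold change with a difference of 1.33 (standard error 0.109, limma adjusted p = 0.000559), and it moved unlike the lead by 1.75 (adjusted p = 0.000427). The probe sets of Ppp2r5e therefore split 3 lower against 1 higher among those that passed. The lead of Ppp2r5e lost its call without LC-HFD replicate 2 (adjusted p = 0.0523) and without LC-RD replicate 1, 2 or 3 (0.0748, 0.0791 and 0.0537).

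Ppp2r2d, another PP2A targeting subunit, also had a probe set that left its lead. Its lead gave 0.15 and a second probe set 0.17, and neither passed. On 1420034_at the LC-HFD lungs read 3.20, 3.09 and 3.59 and the LC-RD lungs 4.73, 4.58 and 4.47, so this probe set fell by 1.3 (standard error 0.141, limma adjusted p = 0.0014). It moved unlike the lead by −1.45 (adjusted p = 0.00255), and its signal was low, with means of 3.29 ± 0.26 in LC-HFD lungs and 4.60 ± 0.132 in LC-RD lungs. Ppp2ca, the catalytic subunit, differed by 0.0168 on its lead and did not pass on any of 3 probe sets. Phlpp1, which removes a phosphate from AKT, differed by −0.11.

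Among the direct targets of AKT, Gsk3a rose and Gsk3b did not pass on its lead. Both encode GSK3, which holds back glycogen synthesis and marks proteins for breakdown until AKT inhibits it. Gsk3a has 1 probe set, which read 8.68, 8.65 and 8.82 in LC-HFD lungs and 8.14, 8.10 and 8.11 in LC-RD lungs. The groups lay clearly apart, with a difference of 0.60 (standard error 0.0763, limma adjusted p = 0.00243), a 1.51-fold change. The lead of Gsk3b gave −0.0806 (limma adjusted p = 0.485), and 0.023 with the 3′ to 5′ gap in the model. Of its other 5 probe sets, 1451020_at passed with 0.32, at 8.09 on each LC-HFD array and 7.73 to 7.79 on the LC-RD arrays, and it alone moved unlike the lead (limma adjusted p = 0.0365).

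The FOXO genes encode transcription factors of quiescence, stress resistance and metabolism. Foxo4 rose on its lead, with 6.75, 6.67 and 6.65 in LC-HFD lungs and 6.28, 6.25 and 6.15 in LC-RD lungs (difference 0.46, standard error 0.0756, limma adjusted p = 0.00578). Its second probe set gave 0.20 without passing. Foxo1 differed between its probe sets. The lead, 1416983_s_at, gave −0.0203 with overlapping groups, while 1416981_at read 7.74, 7.58 and 7.57 in LC-HFD lungs and 7.10, 7.08 and 7.09 in LC-RD lungs. That probe set passed with 0.54 (adjusted p = 0.00334) and 1416982_at with 0.36 (0.0341), and both moved unlike the lead (0.0113 and 0.0393). The lead of Foxo1 gave 0.043 with quantile normalization, 0.077 with the 3′ to 5′ gap in the model, 0.031 without LC-HFD replicate 2 and 0.004 without LC-RD replicate 2. Foxo3 did not pass on any of 3 probe sets, with differences from −0.0791 to 0.15.

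Of the 8 TSC and mTOR genes measured, Tsc2 passed on its lead. Tsc2, whose product tuberin keeps RHEB inactive, read 7.91, 7.93 and 7.97 in LC-HFD lungs and 7.66, 7.62 and 7.65 in LC-RD lungs, without overlap. The difference of 0.29 passed (standard error 0.0679, limma adjusted p = 0.0202), but not when LC-HFD replicate 3 (0.0511) or any LC-RD lung (0.052 to 0.0845) was left out. Its partner Tsc1 differed by 0.0505 and Rheb by −0.0826. Mtor itself, the kinase of both complexes, gave 0.1 on its lead (limma adjusted p = 0.559). Rptor, which defines complex 1, differed by 0.0391, Mlst8, shared by both complexes, by 0.26, and the S6 kinase gene Rps6kb2 by 0.0764, and none of these passed. A probe set of Mtor with low signal, 1446185_at, rose from 3.57 ± 0.0186 to 4.26 ± 0.0378 (difference 0.69, adjusted p = 0.00102).

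Rictor, which defines mTOR complex 2, the complex that phosphorylates AKT, had the widest split among these genes. The lead read 8.42, 8.45 and 8.46 in LC-HFD lungs and 8.40, 8.45 and 8.32 in LC-RD lungs, and the difference of 0.0565 did not pass (limma adjusted p = 0.592). Probe set 1441753_at read 7.57, 7.44 and 7.54 against 6.44, 6.33 and 6.17. It rose by 1.2 (standard error 0.0933, adjusted p = 0.000462), a 2.3-fold change, and moved unlike the lead by 1.14 (adjusted p = 0.00095). The other 3 gave −0.30, −0.44 and 0.30 and did not pass.

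The catalytic subunits of AMPK were lower where they passed. AMPK senses a fall in cellular energy and acts against mTOR complex 1. Prkaa1 has 1 probe set, which read 6.45, 6.06 and 6.16 in LC-HFD lungs and 6.70, 6.88 and 6.74 in LC-RD lungs. The groups did not overlap, and the difference was −0.55 (standard error 0.118, limma adjusted p = 0.0157). Without LC-RD replicate 2 its adjusted p was 0.0648. The lead of Prkaa2 gave −0.18 (adjusted p = 0.161), and a second probe set fell from 6.66, 6.66 and 6.76 in LC-RD to 6.08, 6.02 and 6.05 in LC-HFD lungs (difference −0.64, adjusted p = 0.00152). The second probe set moved unlike the lead by −0.46 (adjusted p = 0.0191).

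Over all 87 member probe sets, 16 rose, 10 fell and 61 did not pass, so that 18.4% were higher and 11.5% lower, against 11.3% higher and 13.6% lower among all 45037. The shares over all probe sets were not matched for signal level. Without LC-RD replicate 1 the number that rose was 9, and the number that fell was 6 without LC-HFD replicate 2 and 3, 2 and 4 without LC-RD replicates 1, 2 and 3. The groups did not overlap in 38 of the 87, against 43.8% of all probe sets. More than 2-fold changes that passed occurred in 5 (5.75%), against 1.73% of all probe sets. These were 1 probe set each of Pik3cd, Pik3ca, Rictor, Ppp2r5e and Ppp2r2d. In 4 of these genes the probe set was not the lead. The study lists all 5 probe sets among its changed genes from these arrays. The members were chosen with earlier results of these data known, so the share over 2-fold is not a test of them. At least 1 probe set passed in 18 of the 33 members, and in 2 of them, Pik3ca and Ppp2r5e, probe sets passed in both directions. The shares of all genes with such probe sets were not computed, so these 2 counts are descriptions and not a result about the members.

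Probe sets of 1 gene read different stretches of its transcripts, so their agreement was tested directly. For each of the 22 members with several probe sets, every other probe set was compared with the lead within each array. Of 54 such comparisons 18 passed (33.3%), in 10 genes, against 19.8% of 16752 comparisons over all genes. The members were chosen with earlier results of these data known. Several of their probe sets that moved unlike the lead are among the changed genes the study lists. The share of the members is therefore not a test of them. Comparisons of 1 gene share its lead and are not independent, and Pik3cd gives 5 and Pik3ca 4 of the 18. Without LC-RD replicate 2 the number was 11. Of the 18, 3 were Pik3cd probe sets dim in both groups. With a mean log2 of at least 4 required of both probe sets, 14 of 40 comparisons passed (35%), against 28.1% of 10368 over all genes. The other genes with such a probe set were Pdpk1, Ppp2r2d, Ppp2r5e, Gsk3b, Foxo1, Mtor, Rictor and Prkaa2. In Pik3cg, Pik3r1, Inpp5d, Inpp4b, Akt1, Akt2, Ppp2ca, Foxo3, Foxo4, Tsc1, Rptor and Mlst8 no comparison passed. Which stretch each probe set reads was not analyzed here.

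**Figure D3:**
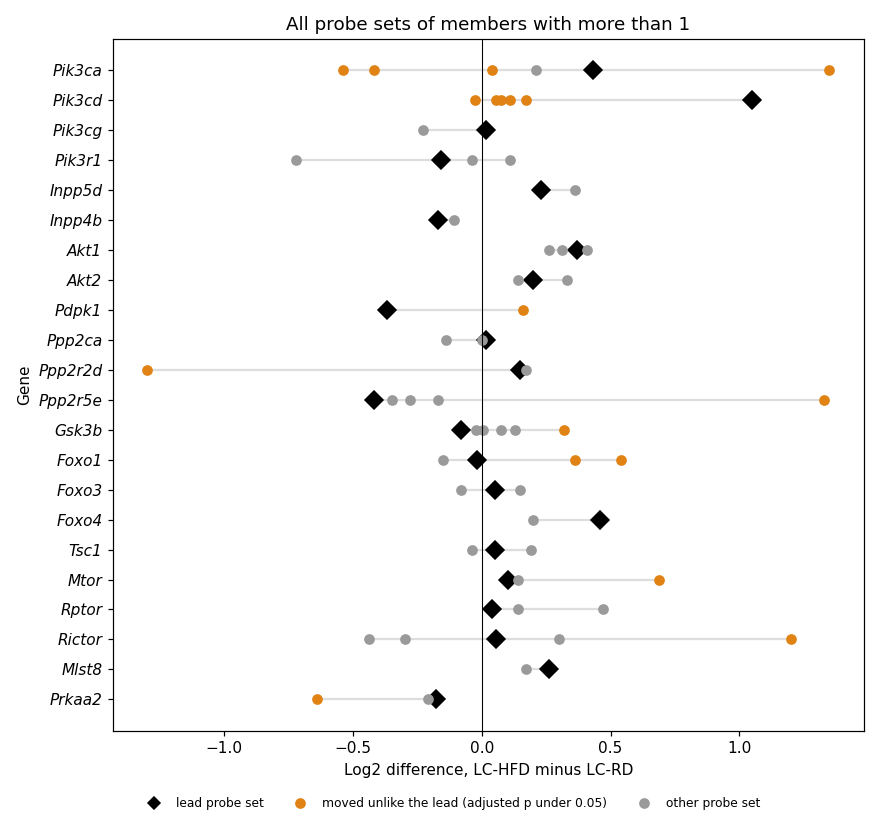
LC-HFD minus LC-RD difference in log2 value (horizontal axis) of every probe set of the 22 members with more than 1; black diamonds are lead probe sets, orange points moved unlike the lead and gray points did not pass that test. Probe sets of Pik3ca, Ppp2r5e, Ppp2r2d and Rictor lie on both sides of 0, while all 4 of Akt1 lie between 0.26 and 0.41.

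Other genes of the pathway were taken from 9 lists written from general knowledge, with 91 of 95 genes measured. In LC-HFD lungs 7 of them rose, 22 fell and 62 did not pass, with a median difference of −0.14. That is 7.69% higher and 24.2% lower, against 11.1% and 16.2% of all genes. These counts include the list of genes that FOXO factors induce, with 22 measured, of which 8 fell and 0 rose. Of the 91 leads, 78 had a mean log2 of at least 6, and the shares of all genes were not matched for signal level. Leaving out LC-HFD replicate 2 or 3 gave 3 that rose, and leaving out LC-RD replicate 1, 2 or 3 gave 2, 3 and 3 that rose and 13, 12 and 14 that fell. The lowest differences were those of Sgk1 and Ddit4. Sgk1 encodes a kinase related to AKT that mTOR complex 2 activates, and it read 9.36, 9.20 and 9.29 in LC-HFD lungs and 10.49, 10.54 and 10.64 in LC-RD lungs (difference −1.27, standard error 0.0807, limma adjusted p = 0.000231). Ddit4, which encodes the stress-induced mTOR complex 1 inhibitor REDD1, read 7.67, 7.63 and 7.69 against 8.82, 8.83 and 8.79 (difference −1.15, standard error 0.0675, adjusted p = 0.000193). Both genes have 1 probe set, and for both the groups lay far apart.

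Among 24 genes of mTOR complex partners and lysosomal regulators, 2 rose and 7 fell (8.33% and 29.2%, against 11.1% and 16.2% of all genes), with a median of −0.17. On lead probe sets, the largest decreases after Ddit4 were those of Rragd, a GTPase that brings mTOR complex 1 to the lysosome (−0.73, with up to 0.33 on its other probe sets), and Sesn1, a stress-induced inhibitor of the complex (−0.58, up to 0.0342). Fnip2 fell by 0.52 on its lead. Fnip1, a partner of the lysosomal regulator folliculin, fell by 0.51 on its lead and ranged from −1.69 to −0.22 over its 3 probe sets. Sesn2, a relative of Sesn1, rose by 0.43. Of 9 mTOR complex 1 effectors, Ulk1, a kinase that starts autophagy, rose by 0.41 and Pdcd4, an inhibitor of translation initiation, fell by 0.69, and 7 did not pass. Among those 7, Eif4ebp2, a translation repressor that mTOR complex 1 inactivates, gave 0.0829 on its lead and up to 1.84 over its 5 probe sets. Among 8 insulin receptor and adaptor genes, Gab2, an adaptor that binds PI3K, fell by 0.70 (up to 0.34), Pik3ip1, an inhibitor of PI3K, by 0.48 and Pik3ap1, an adaptor of B cells, by 0.47, and 0 rose. Pik3c2g and Pik3c3 fell by 0.49 and 0.37 among 5 other PI3K genes, and Pik3c2g was at 3.18 and 3.67, dim in both groups. Inppl1, which encodes SHIP2, rose by 0.25 among 5 phosphatases. Of 11 other PP2A subunits 3 rose (27.3%) and 2 fell (18.2%), with Ppp2r5c at −0.58 (−0.61 to 0.23 over its 7 probe sets), Ppp2r1b at −0.37 and Ppp2r5b at 0.32. Of 9 AMPK partners and activating kinases, Prkag2 fell by 0.32 (−0.65 to 0.0853 over its 4 probe sets) and the rest did not pass. The lists under 10 genes are too short for their shares to be read against all genes.

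Genes that FOXO factors are known to induce passed in 1 direction. Of 22 measured, 8 fell (36.4%), 0 rose and 14 did not pass, against the background of 16.2% lower and 11.1% higher, and the median difference was −0.28. That background covers leads at all signal levels, while 20 of the 22 leads had a mean log2 of at least 6. It was not matched for level, so the shares are not like for like. The 8 were Cited2, Sesn1, Il7r, Pik3ip1, Bnip3, Tnfsf10, Cdkn1b and Sesn3, and 3 of these are also in the lists above. Cited2, a regulator of hypoxia-responsive transcription, read 8.69, 8.56 and 8.68 in LC-HFD lungs and 9.32, 9.27 and 9.40 in LC-RD lungs (difference −0.69, limma adjusted p = 0.00152), and its other probe set gave 0.35. Sesn1 read 7.41, 7.29 and 7.22 against 7.96, 7.85 and 7.85 (adjusted p = 0.00362). Il7r, the interleukin-7 receptor of lymphocytes, fell by 0.49, and Bnip3, a mitochondrial autophagy receptor, by 0.39. The number that fell was 15 with an intensity trend, 3 with the 3′ to 5′ gap in the model, 5 without LC-HFD replicate 3, and 4, 4 and 5 without LC-RD replicates 1, 2 and 3. These genes have many other regulators, and the part of FOXO in their levels was not tested.

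**Figure D4:**
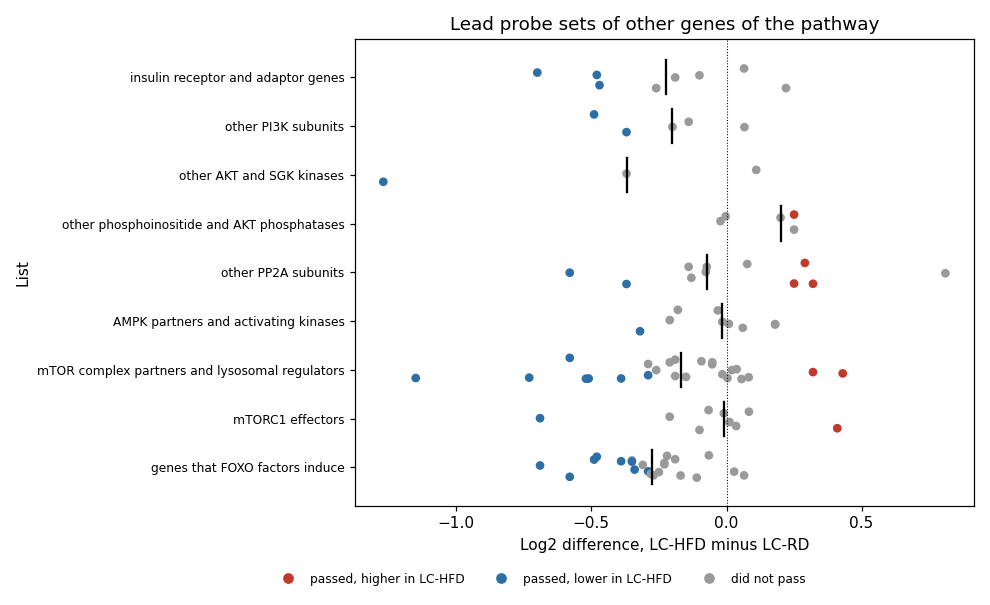
LC-HFD minus LC-RD difference in log2 value (horizontal axis) of the lead probe sets in 9 lists of other pathway genes, with 1 point per gene and a black line at each list's median. Red points passed as higher and blue points as lower; the list of genes that FOXO factors induce has 8 blue points, 0 red points and a median of −0.28, and Sgk1 (−1.27) and Ddit4 (−1.15) lie farthest left.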

How the data were processed

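RNA from the lungs of 3 mice per diet was hybridized to Affymetrix arrays, 1 per mouse. The authors deposited log2 values per probe set, made with GCRMA per the labels' processing notes, which corrects background by probe sequence and normalizes across arrays. Its version is not given in the sources used here, and the methods name Partek software. Array medians were 4.79 to 4.84, and precision is limited by the number of arrays. Values were not normalized again. Of 45101 probe sets, 64 controls were set aside. Gene names came from the platform annotation, updated through Entrez ID for 34754 probe sets. The diets were compared by limma 3.58.1 (R 4.3.3), two-sided, with Benjamini-Hochberg adjustment. The step was tested on simulated arrays. Figures used Python 3.11.15 and matplotlib 3.10.9.

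Every member is accounted for. Members with a passing probe set over 2-fold, a passing lead of at least 0.5, or a probe set opposite to and unlike the lead are given in full. Per pathway list, up to 3 passing genes with the largest lead differences were planned, and some further genes are named. The members and lists were chosen with earlier results of these data known. Alternatives were the methods' t-test, an intensity trend, weighted arrays, median centering, quantile normalization, a mean log2 value of at least 4 or 6, a 2-fold threshold, gene means, a replicate block, the 3′ to 5′ gap of control genes in the model and each array left out. Values of single probe sets other than leads, of Akt1, Foxo4 and Tsc2, and of the FOXO list under these settings were added after the data were seen. Differences between mice of 1 group may include technical spread.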

Additional observations from a re-analysis of the deposited data

How the results depend on the processing

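The leads of Pik3cd and Gsk3a, and the probe sets over 2-fold of Pik3ca, Rictor, Ppp2r2d and Ppp2r5e, kept their direction and call under every alternative that gave a value. Of 250 values of 17 single probe sets under alternatives, 222 kept direction and side of the threshold, 23 lost their call and 5 turned in sign. The 5 were the Foxo1 lead with quantile normalization (0.043), with the 3′ to 5′ gap of control genes in the model (0.077), without LC-HFD replicate 2 (0.031) and without LC-RD replicate 2 (0.004), and the Gsk3b lead with that gap (0.023). With 1 array left out, the Foxo1 lead ranged from −0.056 to 0.031.

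With that gap in the model, 2 member genes rose and 0 fell, 7 member probe sets rose and 2 fell, and 0 other pathway genes rose and 9 fell. The gap was lower in every LC-HFD lung than in every LC-RD lung, so this model cannot separate it from diet. The leads that lost their call kept similar differences in Pik3ca (0.405, limma adjusted p = 0.0644), Akt1 (0.36, 0.0992), Foxo4 (0.466, 0.0608), Tsc2 (0.296, 0.131) and Ppp2r5e (−0.411, 0.146), and smaller ones in Pdpk1 (−0.276, 0.197) and Prkaa1 (−0.368, 0.178). By the methods' t-test after Benjamini-Hochberg adjustment, 1 member gene and 5 member probe sets fell, and Prkaa1 (adjusted p = 0.0659) and Ppp2r5e (0.0638) did not pass. Over 2-fold, 1 member gene rose and 0 fell, 4 member probe sets rose and 1 fell, and 0 pathway genes rose and 2 fell. An intensity trend gave 35 pathway genes that fell, a mean log2 of at least 6 gave 12 that rose and 34 that fell, and gene means gave 12 that rose. The cause of these shifts was not tested. The number of FOXO-induced genes that fell was 13 with a minimum mean log2 of 4 or 6, 4 with the block and 0 over 2-fold, and 0 rose under any of these settings.

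With 1 array left out, 4 to 7 member genes rose and 0 to 3 fell, 9 to 17 member probe sets rose and 2 to 10 fell, 2 to 5 pathway genes rose and 12 to 23 fell, and 11 to 19 probe sets moved unlike their lead. Fewer arrays also leave fewer degrees of freedom.

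Arrays with the same replicate number did not deviate together (correlations −0.0431, −0.093 and −0.0303), and the sample labels give no pairing. With 3 arrays per group, this check could miss handling that such arrays shared. With a replicate block, 5 member genes rose and 3 fell, 11 member probe sets rose and 9 fell, 2 pathway genes rose and 15 fell, and Tsc2 had an adjusted p of 0.0686.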
